A study of Homo sapiens with 16 samples.

Results

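Open chromatin around 10 matrix metalloproteinase genes was examined in MDA-MB-231 cells, a mesenchymal human breast adenocarcinoma line, from 4 lists of ATAC-seq peaks. ATAC-seq marks DNA that a transposase can reach. Of the genes, MMP7, MMP10, MMP1, MMP3, MMP12 and MMP13 lie in a cluster on chromosome 11, with MMP8 between MMP7 and MMP10. MMP2, MMP9, MMP14 and MMP16 lie on chromosomes 16, 20, 14 and 8. A peak belonged to a gene when its summit fell in the gene body or within 50 kb of it on GRCh38, and each peak went to the nearest of the 10 genes. This took in 348 of 477967 listed peaks. Peaks of different lists that overlapped by at least 1 bp were joined into regions, which gave 119 regions of 164016. The chromosome 11 cluster held 32 of them and the other 4 genes held 87.

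Matrix metalloproteinases are zinc-dependent enzymes that cut collagens, other matrix proteins and many proteins at the cell surface. Most are made as inactive precursors, are switched on by removal of a propeptide, and are held back by the TIMP inhibitors. In breast carcinoma cells they are best known for opening paths through collagen and basement membrane, and the promoters of several of them carry AP-1 sites.

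The study grew these cells, labelled wild type, on polyacrylamide gels coated with type I collagen, either soft (1 kPa) or stiff (308 kPa). It compared a starting population, called ancestral, with a population called selected, which had been replated at 20000 cells a passage on gels for 75 days. The stated question was whether soft-selected cells on soft matrix differ from ancestral cells on soft matrix. The 4 groups were ancestral cells on soft gel, ancestral cells on stiff gel, selected cells on soft gel and selected cells on stiff gel, with 4 libraries each and 16 in all. The labels do not say on which gel the cells labelled selected on stiff had been selected, so in that group a longer stay on stiff gel and a transfer from soft gel cannot be told apart. All groups come from 1 cell line.

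The authors deposited 1 peak list per group, so no value below has a replicate spread and no difference was tested. The lists of ancestral cells held 109578 peaks on soft and 116043 on stiff gel, and those of selected cells held 129755 and 122591. Where 4 values follow each other without further labels below, they stand in this order. Pileup, the number of fragments over the summit, had list medians of 111, 132, 51 and 56 and was not scaled to depth. Each pileup was therefore divided by the median of its own list, and this quotient is called relative pileup. The lists also differed in height over the caller's background. That background was a pileup of 16.3, 20.2, 13.5 and 12.6, and median fold enrichment over it was 6.47, 6.27, 3.59 and 4.19. Division by list medians also takes out this lower enrichment in selected cells, and fold enrichment without such division keeps it. The weakest listed peak had a relative pileup of 0.279, 0.28, 0.529 and 0.464, so a weak region could be listed more readily in ancestral cells than in selected cells on this scale. An interval given with a ratio of 2 pileups is an exact binomial 95% interval and covers counting error only. Of 8 markers of mesenchymal breast lines that could be judged, 7 had, in each of the 4 lists, a peak no more than 1 kb from an end of the gene, while ESR1, KRT14, PTPRC, PECAM1, DCN and LUM had none in any list.

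The sequences before 3 annotated starts are shown first, because the start regions of MMP7 and MMP10 were listed in some groups only and that of MMP14 in all. Each run is the 250 bases before the start on the gene's own strand, from the RefSeq promoter table for GRCh38.p14, which matched 3 of the 10 genes. Capitals mark matches on either strand to the AP-1 motif TGANTCA, the ETS motif AGGAAG, which reads CTTCCT on the other strand, the TEAD motif GGAATG and the TATA motif TATAAA.
MMP7, chr11:102530748-102530997, minus strand: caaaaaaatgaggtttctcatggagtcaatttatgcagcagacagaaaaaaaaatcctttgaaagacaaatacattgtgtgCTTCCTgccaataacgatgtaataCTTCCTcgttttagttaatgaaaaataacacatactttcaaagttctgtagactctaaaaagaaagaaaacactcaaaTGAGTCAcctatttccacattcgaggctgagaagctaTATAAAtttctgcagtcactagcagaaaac
MMP10, chr11:102780629-102780878, minus strand: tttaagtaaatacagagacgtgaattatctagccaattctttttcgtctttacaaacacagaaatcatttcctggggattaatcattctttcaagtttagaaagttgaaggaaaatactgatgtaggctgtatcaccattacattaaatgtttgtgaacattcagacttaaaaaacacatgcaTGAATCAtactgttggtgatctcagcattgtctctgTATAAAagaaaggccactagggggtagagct
MMP14, chr14:22836335-22836584, plus strand: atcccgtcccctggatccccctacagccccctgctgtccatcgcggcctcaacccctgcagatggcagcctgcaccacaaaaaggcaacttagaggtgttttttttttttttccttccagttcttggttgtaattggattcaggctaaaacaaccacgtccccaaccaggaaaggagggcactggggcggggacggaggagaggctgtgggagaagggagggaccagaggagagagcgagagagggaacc

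The MMP7 and MMP10 sequences share a layout. TGAGTCA begins 67 bases before the start of MMP7, and TGAATCA begins 67 bases before the start of MMP10. TATAAA begins 30 and 31 bases before these starts. MMP7 has CTTCCT in 2 places, 169 and 145 bases before its start, and MMP10 has no match to that motif in this window. None of the 4 motifs was found in the MMP14 window. Over 35116 promoters of the table, searched on both strands, 6.57% held TGANTCA, 28.7% AGGAAG, 11.9% GGAATG and 10.7% TATAAA. A match describes letters and does not show that a factor binds.

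Across the chromosome 11 cluster, the 32 regions lay in separate groups with long stretches between them, and 3 had their summit inside one of the 6 genes. Of the 32, 13 (40.6%) had a peak in all 4 lists, against 43.7% of all regions. The 13 had median relative pileups of 1.75, 2.07, 1.98 and 1.84 in the order ancestral soft, ancestral stiff, selected soft, selected stiff. Regions of the cluster in 1 to 3 lists were weaker, at 0.568, 0.477, 0.725 and 0.679. A peak in 1 list only was found for 10 of the 32, against 26.9% of all regions. In the 13 regions of all 4 lists, the summits lay a median of 21 bp apart between lists, compared with 55 bp over all such regions.

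**Figure D1:**
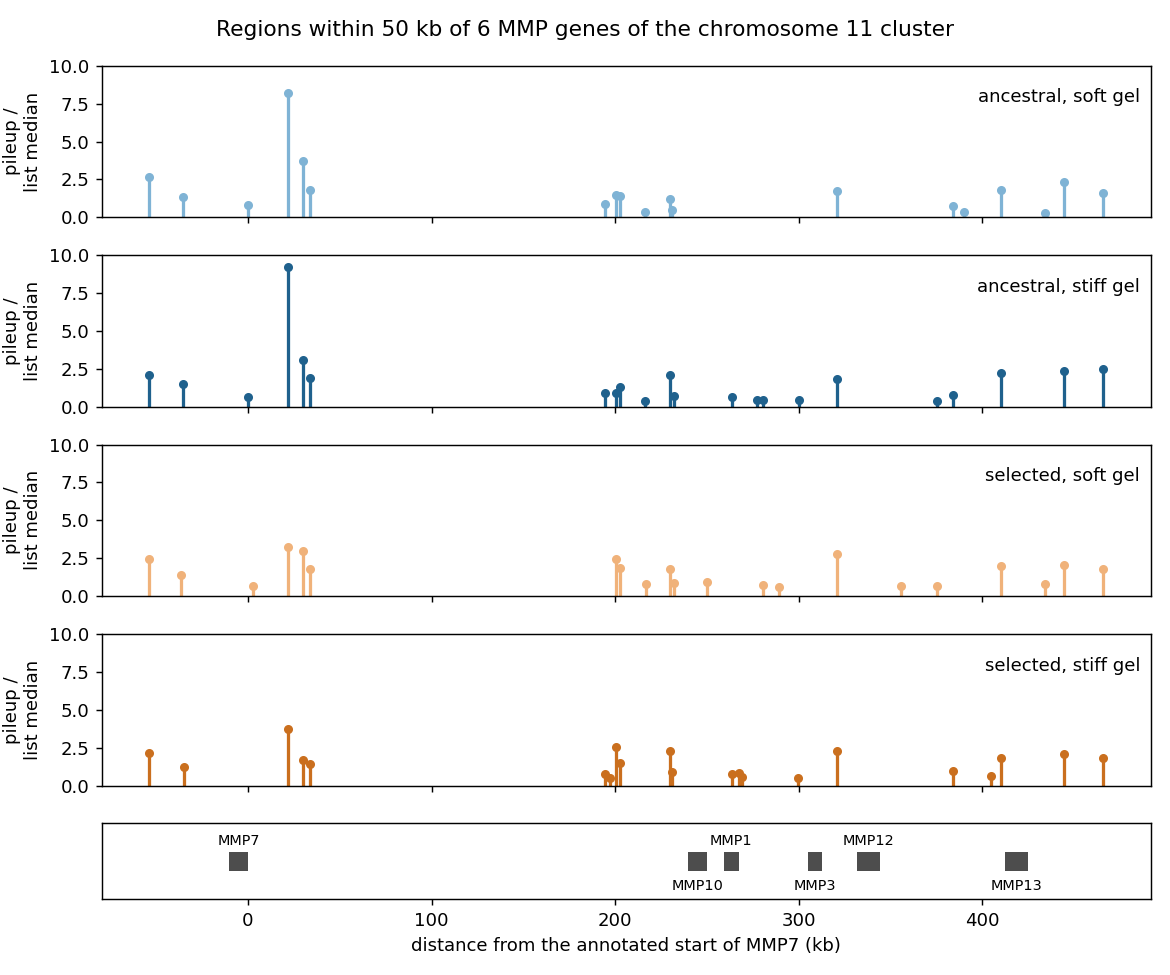
Relative pileup (pileup over the list's median, vertical axis) of the 32 regions of the chromosome 11 cluster against distance in kb from the annotated start of MMP7, with 1 panel per list and the 6 genes as bars at the bottom. The highest stem in each list stands 21.85 kb outside MMP7 and is lower in both selected lists (3.27 and 3.73) than in both ancestral lists (8.20 and 9.20).

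MMP7 encodes matrilysin, a small enzyme that lacks the hemopexin domain and is typical of epithelial cells (chr11:102520508-102530747). Its start lies in the region chr11:102530569-102530923, which was listed in ancestral cells only, with pileups of 87 on soft and 88 on stiff gel (relative pileup 0.784 and 0.667). The summits stood 66 and 61 bp inside the gene, and the peaks covered 153 and 176 of the 250 bases printed above, the AP-1 match included. Their fold enrichments over the caller's background were 5.08 and 4.19, with −log10 q of 32.7 and 27. Both relative pileups were above the weakest listed peak of the selected lists. No other region of the cluster was listed for ancestral cells on both gels and for selected cells on neither, a pattern of 6.39% of all regions.

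The strongest region of the whole cluster, chr11:102551894-102554198, lay 21.85 kb from MMP7 and in no protein-coding gene. Its pileups were 910 in ancestral soft, 1215 in ancestral stiff, 167 in selected soft and 209 in selected stiff cells. Both ancestral lists were high and both selected lists low, and this order held on the relative scale at 8.20, 9.20, 3.27 and 3.73. Relative pileup was 2.5-fold higher in ancestral than in selected cells on soft gel (interval 2.12 to 2.97) and 2.47-fold on stiff gel (2.13 to 2.87). Among regions shared by the same lists, 0.594% on soft and 0.773% on stiff gel had an equal or lower ratio of selected to ancestral. Among regions with a peak in all 4 lists, 1.02% were over 2-fold higher in ancestral cells on both gels, and 5.75% were over 2-fold higher in selected cells on both.

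The next region outward, chr11:102560063-102561165, had pileups of 415, 404, 153 and 96 in the same order of lists. It was low in selected cells on stiff gel, where relative pileup was 1.79-fold below that of ancestral cells (interval 1.43 to 2.25), and nearer to ancestral cells on soft gel, at 1.25-fold (1.03 to 1.51). The remaining regions of MMP7 in all 4 lists had relative pileups between 1.23 and 2.67. All 5 shared regions of MMP7 had a soft-gel ratio of selected to ancestral below the median over all regions. A weak region 2.86 kb from the gene, chr11:102533402-102533753, was listed in selected soft cells only, with a pileup of 34.

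MMP10 encodes stromelysin-2, which cleaves proteoglycans, laminin and several precursor enzymes of the family (chr11:102770502-102780628). Its start region, chr11:102780374-102780728, was listed in selected cells on soft gel only, with a pileup of 49 and a relative pileup of 0.961. The summit stood 27 bp inside the gene, and the peak covered 100 of the 250 upstream bases, again with the AP-1 match. Fold enrichment was 3.45 and −log10 q 12.0.

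The strongest region counted with MMP10, chr11:102730750-102731472, lay 39.34 kb from that gene and nearer to MMP8 (chr11:102711796-102724954). Pileups of 161, 117, 124 and 142 gave relative pileups of 1.45, 0.886, 2.43 and 2.54 in the usual order of lists. Both selected lists were above both ancestral lists, and the ancestral stiff list was the lowest. The ratio of selected to ancestral was 2.86 on stiff gel (interval 2.22 to 3.69) and 1.68 on soft gel (1.32 to 2.13). By fold enrichment without division by the list median the same ratios were 1.89 and 0.923, so the direction on soft gel turned with the scale. Each of the 5 regions of MMP10 shared on soft gel stood above the all-region median of the selected to ancestral ratio, where MMP7 had 0 of 5. By the nearest of all protein-coding genes, however, only 3 of the 8 regions counted with MMP10 stayed with it. For MMP7, 4 of 7 stayed.

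Nearer to MMP10, chr11:102759956-102761133 had pileups of 137, 273, 92 and 127. It was higher on stiff than on soft gel in ancestral cells, 1.68-fold by relative pileup (1.36 to 2.07). The interval of the same ratio in selected cells, 1.26-fold, reached below 1 (0.954 to 1.66). As log2 of soft to stiff gel the ancestral value was -0.74, beside a median of -0.19 over all shared regions. A further region counted with MMP10, chr11:102724904-102725813, lay at an end of MMP8, the neutrophil collagenase gene. It had pileups of 96, 122 and 42 in ancestral soft, ancestral stiff and selected stiff cells and was not listed in selected soft cells.

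MMP1 encodes interstitial collagenase, which cuts fibrillar collagen of the kind coated on these gels (chr11:102789919-102798160). None of its 5 regions was in all 4 lists, and the ancestral soft list held none of them. A region over the end with the higher coordinate, chr11:102798052-102798680, was listed in selected stiff cells only, with a pileup of 46, a relative pileup of 0.821, a fold enrichment of 3.45 and −log10 q of 11.3. Inside the gene, chr11:102794298-102794676 was listed on stiff gel only, with pileups of 83 in ancestral and 43 in selected cells (0.629 and 0.768 relative). The other 3 regions had pileups of 32 to 63 and were in 1 or 2 lists. MMP1 was thus listed in 3 regions in each stiff list, in 1 in selected soft and in 0 in ancestral soft cells. With −log10 q of at least 10 this became 3 in ancestral stiff, 1 in selected stiff and 0 in both soft lists. Regions listed for stiff gel alone made up 14.0% of all regions in ancestral and 12.6% in selected cells.

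MMP3, the stromelysin-1 gene, which also activates other family members (chr11:102835801-102843609), had 1 region in all 4 lists. This region, chr11:102850936-102851859, had pileups of 194, 245, 141 and 127, and its relative pileup was 1.58-fold higher in selected cells on soft gel (interval 1.26 to 1.98) and 1.22-fold on stiff gel (0.978 to 1.52). By fold enrichment without division by the list median these ratios of selected to ancestral were 0.871 and 0.811, so the direction turned on both gels. A second region, chr11:102830188-102830839, was listed in both stiff lists only, with pileups of 57 and 30. It and the region inside MMP1 were the 2 of 32 cluster regions with that pattern, which 1.17% of all regions had. Both were weak calls, and neither MMP3 end had a peak.

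MMP12, the macrophage elastase gene (chr11:102862736-102874982), was the barest of the 10 genes, with 2 weak regions and no end peak. One, chr11:102886438-102886893, was in selected soft cells only with a pileup of 35, and the other, chr11:102905284-102906180, had 50 in ancestral stiff and 33 in selected soft cells. MMP13, the collagenase-3 gene (chr11:102942995-102955732), had 7 regions, none with its summit in the gene, and no end peak. Its strongest, chr11:102996012-102996898, had pileups of 182, 333, 91 and 103. This region was 1.54-fold higher in ancestral stiff than in ancestral soft cells by relative pileup (1.28 to 1.85). It differed by 1.03-fold between gels in selected cells (0.77 to 1.38). In ancestral cells its log2 ratio of soft to stiff gel was -0.62. All shared regions had a median of -0.19 and a lower quartile of -0.37 there. A region 8.98 kb from MMP13, chr11:102964478-102965114, was the 1 cluster region in both soft lists only, with pileups of 35 and 41. That pattern was found in 0.784% of all regions.

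**Figure D2:**
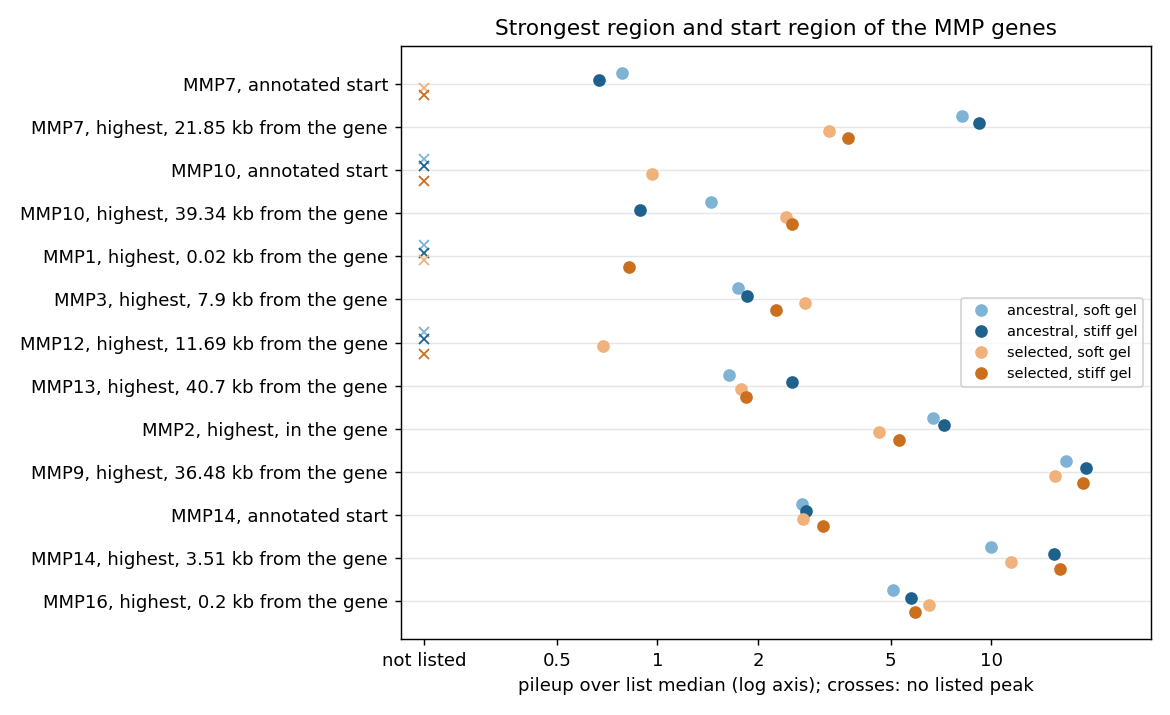
Relative pileup (log axis) in the 4 lists for the region with the highest relative pileup of each of the 10 genes and for the start regions of MMP7, MMP10 and MMP14, with distances measured from the gene to the summit. Crosses at the left mark lists with no peak. The ancestral lists stand to the right of the selected lists at both MMP7 regions. In the start region of MMP14 all 4 lists stand close together (2.70 to 3.14), with the ancestral soft summit 2171 bp inside the gene.

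MMP2 encodes gelatinase A, which degrades denatured collagen and type IV collagen and is activated at the cell surface by the MMP14 product (chr16:55478830-55506691). Of its 9 regions 6 were in all 4 lists, 4 lay inside the gene, and no peak came within 1 kb of either gene end. A region inside the gene, chr16:55480149-55480907, lay just beyond that limit from the end with the lower coordinate. It was in all 4 lists, with pileups of 208, 193, 54 and 75. The strongest region of MMP2, chr16:55499302-55501091, is inside the gene and had pileups of 745, 954, 235 and 296 (relative 6.71, 7.23, 4.61 and 5.29). Both ancestral lists were above both selected lists, by 1.46-fold on soft gel (1.26 to 1.69) and 1.37-fold on stiff gel (1.2 to 1.56). A region 7.95 kb outside the gene, chr16:55470241-55472707, showed the same order with pileups of 508, 672, 136 and 182. There the ancestral excess was 1.72-fold (1.42 to 2.09) and 1.57-fold (1.33 to 1.86). Farther out, 13.57 kb from the gene, chr16:55464806-55465888 went the other way by relative pileup, with pileups of 241, 304, 144 and 153 and selected to ancestral ratios of 1.3 (1.05 to 1.61) and 1.19 (0.97 to 1.45). These were 0.716 and 0.787 by fold enrichment.

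MMP9 encodes gelatinase B, a secreted enzyme with substrates like those of MMP2 (chr20:46008908-46016561). It had the most regions of the 10 genes, 36, and their number was higher in the selected lists, with 31 on soft and 26 on stiff gel against 18 in each ancestral list. Counting only peaks whose −log10 q reached 10, this turned, to 11 regions in each selected list. The ancestral lists then had 12 (soft) and 16 (stiff). All regions turned as well, to 71632 and 74012 in the selected lists against 82920 and 91413 in the ancestral lists. Presence on both gels in selected cells, with no ancestral peak, was found for 9 of the 87 of the 4 genes outside the cluster and for 0 of the 32 of the cluster, against 9.72% of all regions. MMP9 had 7 of these 9, all weak, with pileups of 28 to 44. Of the 36 regions, 2 had no peak in the selected soft list where that list skips a peak number, so their absence there was not determined.

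At MMP9 itself the 4 lists were alike in presence. The region over the end with the lower coordinate, chr20:46007967-46010092, had pileups of 60, 80, 53 and 41, and its relative pileup was 1.92-fold higher in selected cells on soft gel (1.3 to 2.83) and 1.21-fold on stiff gel (0.808 to 1.78). These ratios were 1.06 and 0.809 by fold enrichment without list medians. The summits lay at 46008989 and 46008992 in ancestral soft and stiff cells and at 46009870 and 46008619 in selected soft and stiff cells. The ratios thus compare the strongest peaks of the region, not heights at the same position. Inside the gene, chr20:46010367-46014881 had 377, 538, 191 and 247. Its selected to ancestral ratios were 1.1 (0.922 to 1.32) and 1.08 (0.927 to 1.26), or 0.607 and 0.718 by fold enrichment. The strongest region of the window, chr20:45966597-45974390, lay at an end of ZNF335, a zinc finger gene, with pileups of 1859, 2530, 790 and 1053.

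In the MMP9 window, 2 regions in all 4 lists were over 2-fold higher by relative pileup in selected cells on both gels. In chr20:46054573-46059595, at an end of SLC12A5, the neuronal chloride transporter gene, pileups were 43, 59, 66 and 84, and the ratios were 3.34 (2.24 to 5.03) and 3.36 (2.38 to 4.76). In chr20:45956992-45960952, inside ZNF335, pileups were 40, 57, 51 and 61, with ratios of 2.77 (1.8 to 4.31) and 2.52 (1.73 to 3.69). Fold enrichment without list medians gave ratios of 1.82 and 2.21 for the first and 1.52 and 1.67 for the second, so neither was over 2-fold on both gels. Summits of the first lay at 46057173, 46057593, 46058463 and 46057786, and those of the second at 45957342, 45957338, 45957954 and 45957536. These ratios thus also compare different positions within a region. Both regions lie over 40 kb from MMP9, and the strongest peak of the second has its summit just outside the 50 kb limit. Only 9 of the 36 regions had MMP9 as the nearest of all protein-coding genes.

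MMP14 encodes MT1-MMP, an enzyme anchored in the membrane that cuts collagen at the cell surface (chr14:22836585-22847758). Its start region, chr14:22835860-22839917, had pileups of 300, 367, 139 and 176, or 2.70, 2.78, 2.73 and 3.14 relative to the list medians. The 4 relative values lay close together, and the selected to ancestral ratios were 1.01 (0.819 to 1.24) on soft and 1.13 (0.939 to 1.36) on stiff gel. They were 0.556 and 0.75 by fold enrichment without list medians. Summits stood 81, 64 and 53 bp before the start in ancestral stiff, selected soft and selected stiff cells. In ancestral soft cells the summit stood 2171 bp after the start, so the soft-gel ratio does not compare the same position. Each of these peaks covered all 250 bases printed for MMP14.

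The strongest MMP14 region, chr14:22850523-22854108, lay 3.51 kb beyond the gene's end, with pileups of 1106, 2033, 585 and 902. Relative pileups of 9.96, 15.4, 11.5 and 16.1 put both stiff lists above both soft lists. The stiff to soft ratio was 1.55 in ancestral (1.44 to 1.66) and 1.4 in selected cells (1.26 to 1.56). Among shared regions, 6.99% in ancestral and 5.81% in selected cells had an equal or lower ratio of soft to stiff. In selected cells only, peaks were listed inside MMP14 at chr14:22841925-22842813 (pileups of 32 and 33) and inside LRP10, a receptor gene, at chr14:22876508-22878316 (47 and 38). Of the 22 regions of MMP14, 9 lay at an end of another gene, among them SLC7A7, MRPL52, LRP10, REM2 and RBM23.

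MMP16 encodes MT3-MMP, also anchored in the membrane, and its gene spans 295473 bp (chr8:88032011-88327483), so 19 of its 20 regions lay inside it. The region at the end with the higher coordinate, chr8:88326519-88329244, was its strongest, with pileups of 564, 761, 331 and 330 (relative 5.08, 5.77, 6.49 and 5.89). It was 1.28-fold higher in selected cells on soft gel (1.11 to 1.47) and 1.02-fold on stiff gel (0.896 to 1.16), and the direction turned by fold enrichment without list medians, at 0.703 and 0.677. Within the gene the ancestral stiff list held the most regions, 18, against 11 in ancestral soft, 10 in selected soft and 11 in selected stiff cells. Of these, 4 were in the ancestral stiff list alone, with pileups of 58 to 99, a pattern of 5.07% of all regions.

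Among regions of MMP16 in 2 lists, chr8:88120052-88120885 (61 and 78) and chr8:88290968-88291452 (59 and 87) were in both ancestral lists only. That pattern was found in 6.39% of all regions. The region chr8:88297321-88297725 was in both stiff lists only (63 and 27), as were 1.17% of all regions. An internal region in all 4 lists, chr8:88275905-88276714, had pileups of 197, 357, 56 and 104, high in ancestral stiff cells and low in selected soft cells. Its stiff to soft ratio was 1.52 in ancestral (1.28 to 1.82) and 1.69 in selected cells (1.21 to 2.38). As log2 of soft to stiff gel these were -0.61 and -0.76, beside medians of -0.19 and 0.03 over all shared regions.

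**Figure D3:**
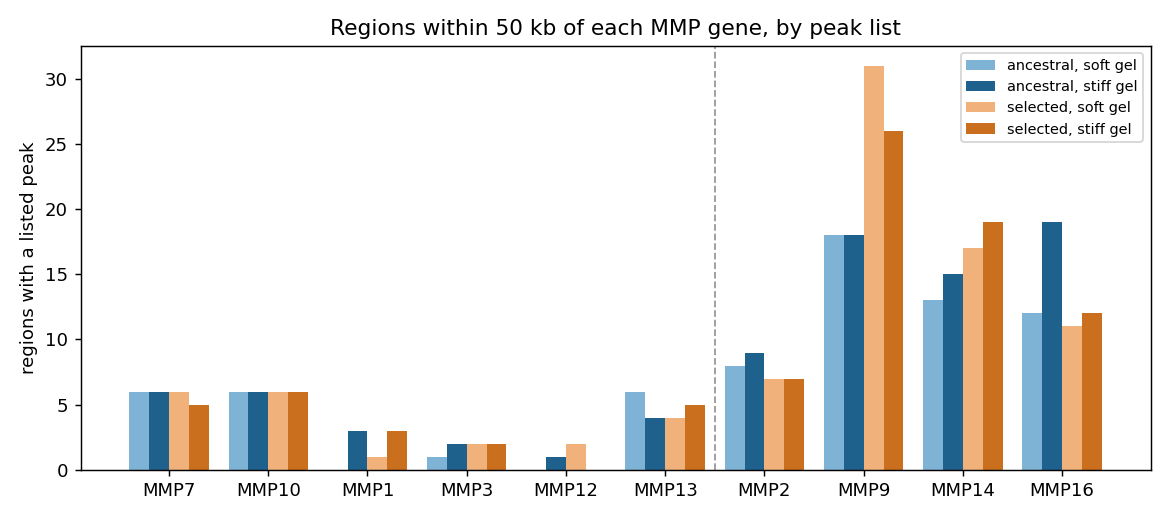
Number of regions with a listed peak (vertical axis) around each gene in each of the 4 lists, with the chromosome 11 cluster to the left of the dashed line. MMP9 has more regions in the selected lists (31 and 26) than in the ancestral lists (18 and 18), and MMP16 has the most in ancestral stiff cells (19).

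On soft gel, the comparison the study set out to make, the cluster had 6 regions listed for selected cells alone, 4 for ancestral cells alone and 15 for both. As shares of its 25 regions these were 24.0% and 16.0%, beside 30.2% and 15.2% of all regions. The 4 genes outside the cluster had 24 and 9 of 75, or 32.0% and 12.0%. Within them MMP9 gave 17 of the 24 and MMP14 gave 5. The shares of both sets were near those of all regions. With −log10 q of at least 10, the other 4 genes had 3 regions for selected cells alone and 11 for ancestral cells alone, and the lean of all regions turned as well, to 10657 against 21945.

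The surroundings of the loci differed from each other. In the other regions within 5 Mb of the cluster, 11.4% were listed on soft gel for selected cells alone and 22.5% for ancestral cells alone. Within 5 Mb of MMP9 the shares were 53.4% and 4.96%, and MMP9 itself had 48.6% and 11.4%. The share at MMP9 was thus close to that of its surroundings taken as 1 window. The part of the surroundings in the MMP9 result was not tested.

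On stiff gel the cluster had 4 regions listed for selected cells alone, 5 for ancestral cells alone and 17 for both (15.4% and 19.2%, beside 20.8% and 17.4% of all regions). The other 4 genes had 15 and 12 of 76 (19.7% and 15.8%). MMP9 again leaned to selected cells, with 9 against 1 of 27 regions (33.3% and 3.7%), and MMP14 with 5 against 1 of 20. With −log10 q of at least 10 these became 1 against 6 and 1 against 0. Over all regions the same limit gave 7709 against 25110. Without that limit, the other regions within 5 Mb of both genes leaned to selected cells too. Their shares were 38.5% against 7.44% around MMP9 and 23.6% against 14.4% around MMP14. MMP16 leaned the other way, with 1 against 8 of 20 regions (40.0% in ancestral cells only), where 21.9% of the other regions within 5 Mb were so listed. MMP2 had 0 against 2.

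Between gels in ancestral cells, 2 of the cluster's 24 regions were listed for soft gel alone and 5 for stiff gel alone, against 8.09% and 14.0% of all regions. The 4 genes outside the cluster had 1 and 11 of 62. MMP16 gave 7 of the 11, or 36.8% of its 19 regions, beside 20.0% within 5 Mb of it. In the cluster MMP1 gave 3 of the 5. In selected cells 8 of the cluster's 29 regions were listed for soft gel alone and 8 for stiff gel alone, or 27.6% each, beside 19.7% and 12.6% of all regions. The other 4 genes had 15 and 13 of 79.

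**Figure D4:**
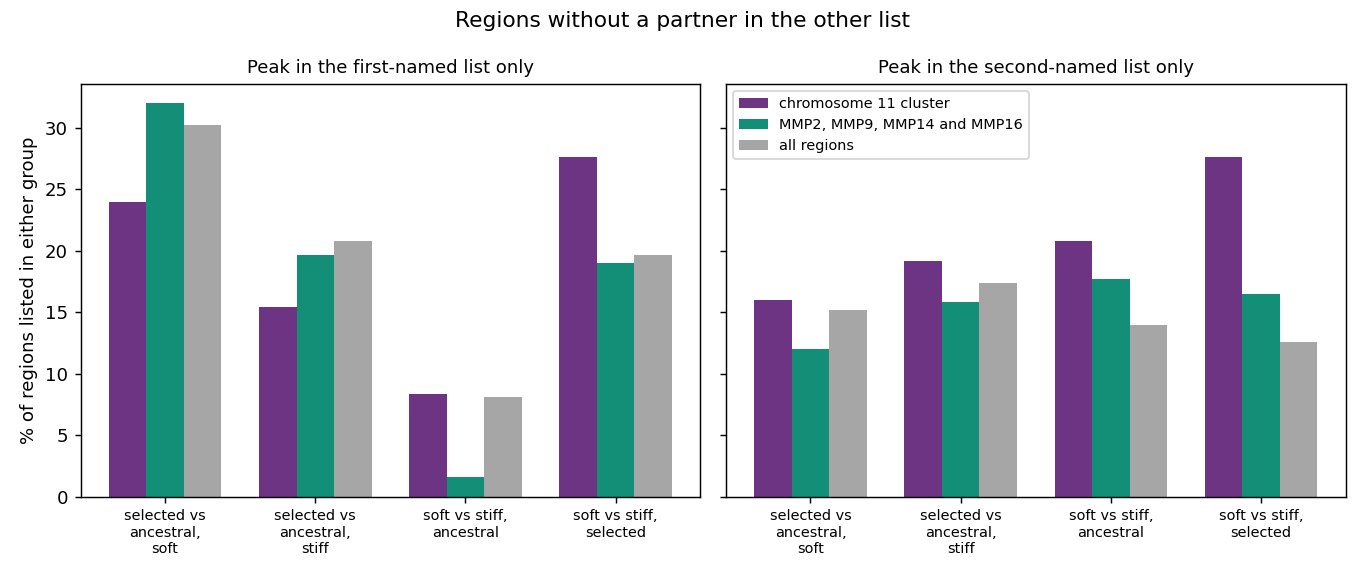
Percent of regions listed in only the first-named (left panel) or only the second-named group (right panel) of the 4 comparisons, out of regions listed in either, for the cluster, the other 4 genes and all regions. The cluster bars for soft against stiff gel in selected cells (27.6% in each panel) are above those of all regions (19.7% and 12.6%), and rest on 8 regions each.

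Strength at shared regions was close to the rest of the genome as a whole. On soft gel the median log2 ratio of selected to ancestral relative pileup was 0.13 in the cluster and 0.22 in the other 4 genes, beside 0.15 over all shared regions. On stiff gel the same medians were 0.01, 0.03 and -0.00. Soft against stiff gel gave -0.09, -0.20 and -0.19 in ancestral cells and 0.12, -0.07 and 0.03 in selected cells. The medians of both sets differed from the all-region median by -0.10 to 0.10. By fold enrichment without division by list medians, the all-region medians became -0.71, -0.59, -0.14 and -0.19, and the distances of both sets from them hardly moved.

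Differences over 2-fold were few. On soft gel 2 shared regions of the cluster were over 2-fold higher in selected cells, 1 of MMP10 and 1 of MMP13, and 1 of MMP7 was over 2-fold higher in ancestral cells, against 13.2% and 1.88% of all shared regions. The other 4 genes had 5 and 0 of 42. On stiff gel the cluster had 1 and 1 and the other genes 3 and 0, against 8.38% and 2.56%. By fold enrichment without list medians, the cluster had 0 and 3 on soft and 0 and 4 on stiff gel and the other genes 0 and 10, then 1 and 5, so the lean to selected cells turned. Between gels no shared region of the 10 genes differed over 2-fold. The background of that was also low, at 0.0678% and 0.708% in ancestral cells and 0.145% and 0.72% in selected cells.

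**Figure D5:**
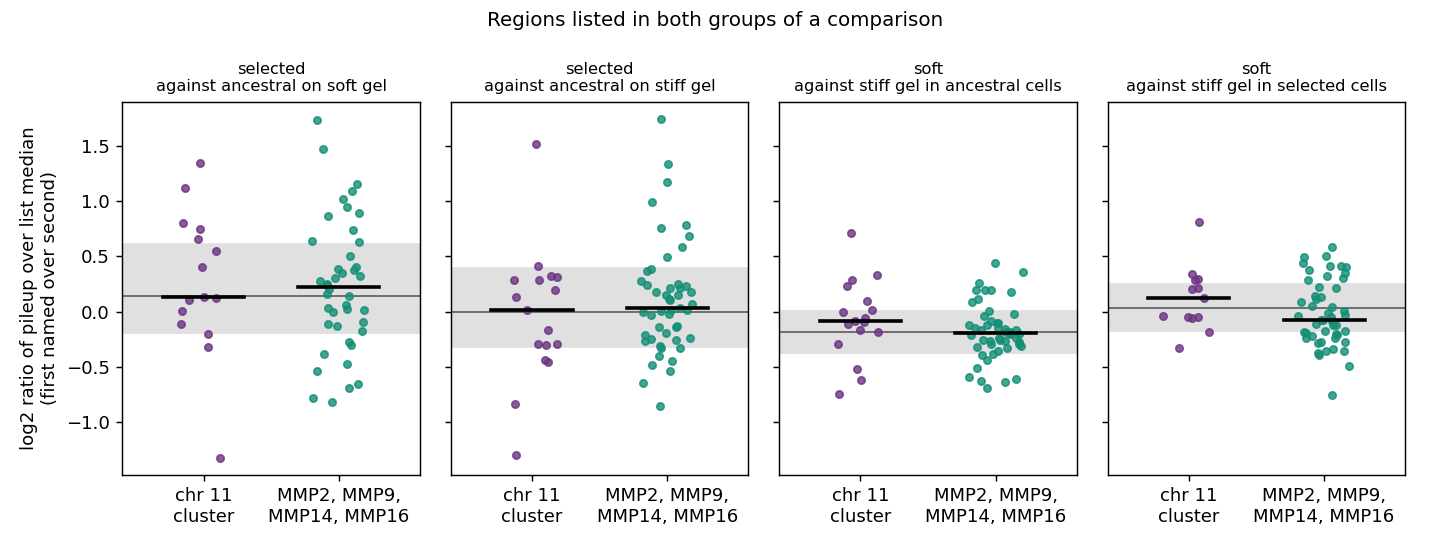
Log2 ratio of relative pileup, first-named over second-named group, for each shared region of the cluster and of the other 4 genes in the 4 comparisons. Black bars are the medians of the points, the grey line and band are the median and the quartiles over all shared regions, and the lowest cluster point in the first panel (-1.32) is the region 21.85 kb from MMP7.

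At the gene ends, the 10 genes fell into 3 kinds. MMP9, MMP14 and MMP16 had a peak within 1 kb of an end in all 4 lists, as did 71.1% of protein-coding genes. MMP3, MMP12, MMP13 and MMP2 had none, as did 19.2%. MMP7, MMP10 and MMP1 had one in some lists, as did 9.68% of genes, and these 3 all belong to the cluster. An end peak was found in selected cells only for 5.75% of genes on soft gel, where MMP10 belonged, and for 4.3% on stiff gel, where MMP1 belonged. In ancestral cells only, the shares were 1.56% on soft and 1.62% on stiff gel, and MMP7 belonged to both. Between gels in selected cells, MMP10 was among the 1.82% of genes whose end was listed for soft gel alone, and MMP1 among the 1.72% listed for stiff gel alone.

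The pathway held 51 other genes, for further matrix metalloproteinases, inhibitors, activators, collagen receptors and regulators. Of these, 10 could not be judged because a list skips a peak number there. Of the other 41, 31 had an end peak in all 4 lists, 6 in none and 4 in some, the last a share near the 9.68% of all protein-coding genes. The inhibitor genes TIMP1, TIMP2, TIMP3, TIMP4 and RECK had one in all 4 lists, and A2M, a general protease inhibitor gene of plasma, had none. The collagen receptor genes DDR1, DDR2, ITGA2 and MRC2 and all 8 judged regulators, among them ETS1, RUNX2 and RELA, had one in all 4 lists. The 6 regulators that could not be judged were FOS, FOSL1, JUN, JUNB, JUND and SNAI1.

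The 4 genes that varied were MMP8, PCSK6, KLK6 and PRSS1. PCSK6, which encodes a proprotein convertase, had end peaks in selected cells only, with pileups of 42 and 48. PRSS1, the trypsinogen gene, had 155, 331 and 37 in ancestral soft, ancestral stiff and selected soft cells and none in selected stiff cells. KLK6, a kallikrein gene, had 43 in ancestral stiff and 33 in selected soft cells. Pathway genes with an end peak in selected cells only numbered 2 on soft and 1 on stiff gel, and those in ancestral cells only numbered 1 and 2.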

How the data were processed

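ATAC-seq libraries were made from 16 samples in 4 groups of 4, from 50000 nuclei each, per the labels' protocols. Tools listed in the submitters' processing notes are Bowtie2 2.4.5 and MACS2 2.2.7.1 on GRCh38, beside Trimmomatic 0.36, MultiQC 1.1 and FastQC 0.11.4. How the caller was set and the libraries pooled is not given in the sources used here, and read totals were not analysed here. Per the file headers, the authors deposited for each peak its pileup signal at the summit, −log10 p-value (not used here), −log10 q-value and fold enrichment, a ratio over background. The deposited fold enrichment equals pileup plus 1 over a single background per list plus 1. The lowest deposited −log10 q was 2.01 to 2.21.

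Peaks were joined into regions, a region took the strongest peak of each list, and ratios used pileup over list median (Python 3.11.15, pandas 2.3.3, scipy 1.17.1). A list that skips a peak number leaves the stretch undetermined. The procedure was tested on simulated data. Gene positions came from RefSeq GRCh38.p14. Regions named are those at annotated starts, the strongest of each gene, those shared by 1 population or 1 gel only, and those over 2-fold apart in both populations' comparisons; other regions were described after their values were seen. The members and lists were chosen with earlier results of these data known. In all, 9 planned and 2 added alternatives were tried, the added ones chosen after seeing the data.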

Additional observations from a re-analysis of the deposited data

Results flagged for a closer look

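For MMP12, the number of regions listed in selected cells only minus that in ancestral cells only was 2 on soft gel and -1 on stiff gel. The number on soft gel only minus that on stiff gel only was -1 in ancestral and 2 in selected cells. For MMP13 the first balance was -2 on soft and 1 on stiff gel, and the second was 2 in ancestral and -1 in selected cells. These results stand out because the balance points in opposite directions in the 2 gels or populations. The difference was not tested, and each rests on 1 list per group. The peaks behind it are weak, except at chr11:102914475-102915045, counted with MMP13. That region had pileups of 84, 99 and 56 in ancestral soft, ancestral stiff and selected stiff cells. Its −log10 q there was 30.6, 34.3 and 17.4.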

How the results depend on the processing

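No paired analysis was possible because each group has 1 pooled list, and for the same reason no library could be left out. Over the alternatives, 81 counts of unshared regions stayed within 1.5 times of the value reported and 47 did not, while 52 medians kept their sign and 12 turned. Of 16 counts, 15 moved with the same number of peaks in every list, 13 with the 10 kb window and 11 with the stricter q, each of which leaves fewer regions by construction.

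Selected-only against ancestral-only regions changed with −log10 q of at least 10. On soft gel they became 1 against 4 in the cluster and 3 against 11 in the other 4 genes. On stiff gel they became 1 against 5 and 1 against 17, so the lean of the other genes to selected cells turned. All regions turned as well, to 10657 against 21945 on soft and 7709 against 25110 on stiff gel. Cluster regions on soft or stiff gel only became 0 and 3 in ancestral and 1 and 3 in selected cells. Those of the other genes became 4 and 7 in selected cells and 0 on soft gel only in ancestral cells. The medians of selected to ancestral turned, for the cluster and the other genes, to -0.19 and -0.15 (soft) and to -0.42 and -0.35 (stiff).

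With the strongest 54789 peaks of every list, the cluster had 0 selected-only and 0 ancestral-only regions on soft gel, 1 and 0 on stiff gel, 1 soft-only and 0 stiff-only regions in ancestral cells, and 0 and 0 in selected cells. The other genes had 4 selected-only and 7 ancestral-only regions on soft gel, which also turned, 4 and 4 for stiff gel, 3 and 2 between gels in ancestral cells, and 3 and 5 in selected cells.

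With summits within 10 kb, fewer regions enter: the cluster had 2 and 1 on soft gel, 1 ancestral-only on stiff gel, 1 and 2 between gels in ancestral and 3 and 5 in selected cells. The other genes had 8 and 5 on soft gel, 4 selected-only on stiff gel, 0 soft-only in ancestral cells and 6 and 6 in selected cells. With each peak given to the nearest of all protein-coding genes, the other genes had 9 and 5 on soft gel, 3 selected-only on stiff gel, 0 soft-only in ancestral and 7 and 5 in selected cells, and the cluster median between gels in selected cells was -0.0455. Joining peaks within 500 bp left 14 selected-only regions of the other genes on soft gel and 9 soft-only in selected cells.

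By fold enrichment without list medians, the selected to ancestral medians turned to -0.73 and -0.64 (soft) and to -0.57 and -0.55 (stiff), and the cluster median between gels in selected cells to -0.10. These follow the all-region medians. Over the median of regions in all 4 lists, the medians between gels in ancestral cells turned to 0.13 and 0.0178. Whether weak regions listed in some groups would be listed again in other libraries was not tested.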
